A study of Homo sapiens with 16 samples.

Results

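The insulin-like growth factor (IGF) family was followed in SH-SY5Y, a human neuroblastoma cell line, through 10 genes of 26410 in the deposited tables. These were the ligand gene IGF2, the receptor genes IGF1R, INSR and IGF2R, and the binding protein genes IGFBP2, IGFBP3, IGFBP4, IGFBP5, IGFBP6 and IGFBP7, each found by its Ensembl identifier. The genes had been picked with their values in the libraries of the 4 groups known, so differences of these 10 genes among the groups are given as a description with no p-value. Poly(A) RNA was sequenced from 4 single-cell clones, with 2 replicates of each clone and treatment, which gives 16 libraries. KO11 and KO28 are the clones labelled TRPM2 KO, made with Cas9 and a guide RNA against TRPM2, a calcium-permeable ion channel. Scr13 and Scr16 are the control clones, made with a scrambled guide RNA. All 4 clones had received the same donor vector with GFP and puromycin markers and were kept under puromycin. Each clone was grown for 24 h in plain medium (untreated) or with doxorubicin, a DNA-damaging chemotherapy drug, at 0.3 µM by the sample labels and the published legends, while the design text of the series has 3 µM. The groups were thus TRPM2 KO untreated, TRPM2 KO doxorubicin, Scr untreated and Scr doxorubicin, with 4 libraries each. Libraries held between 10481177 and 25086085 reads on genes, and a count of 0 allows a level of up to 3 reads, which was 0.118 to 0.285 CPM depending on the library.

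IGFs are secreted growth factors that act through IGF1R, a receptor tyrosine kinase, and through the insulin receptor INSR, both of which feed the PI3K and AKT pathway of growth and survival. IGF2R, also the cation-independent mannose 6-phosphate receptor, takes IGF2 up for degradation in lysosomes and does not signal as a kinase. The IGFBPs are secreted carriers that hold IGFs away from or near the receptors and are cut by proteases such as PAPPA, and IGF2 is a growth factor known from embryonal tumors, neuroblastoma among them.

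Levels are normalized CPM, reads scaled by the authors to the size of each library. Differences are log2 fold changes of CPM + 1 with the standard error (SE) and 95% interval from limma, fitted on all genes with at least 1 CPM in at least 4 of the libraries compared. A gene was called where its p-value, adjusted over all genes tested with the Benjamini-Hochberg method, was under 0.05. Libraries of 1 clone share that clone, so the errors describe the spread between these libraries, and a difference between 2 clones and 2 others cannot be told apart from an effect of the edit.

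TRPM2, the targeted gene, was looked at first. In the untreated libraries TRPM2 had 1.93 and 2.23 CPM in KO11, 1.41 and 2.19 CPM in KO28, 0.118 and 0.115 CPM in Scr13 and 0 reads in both libraries of Scr16. After doxorubicin it had 1.22 and 1.83 CPM in KO11, 1.37 and 0.658 CPM in KO28, 0.0594 and 0.0631 CPM in Scr13, and 1.33 and 0.390 CPM in Scr16. The untreated libraries labelled TRPM2 KO had more TRPM2 reads than the Scr libraries, and the groups overlapped after doxorubicin. By the study's methods, the start of the coding sequence was deleted in the KO clones and the rest put out of frame, so reads summed over all of TRPM2 measure neither the edit nor the label. The paper states that its clones were authenticated by RT-PCR and Western blotting. It also reports more p21 protein, the product of CDKN1A, in TRPM2 KO cells with and without doxorubicin. CDKN1A was higher in the libraries labelled TRPM2 KO, with a log2 fold change of 1.27 ± 0.14 (SE, adjusted p = 3.36e-06 from limma) untreated. After doxorubicin it was 1.13 ± 0.076 (adjusted p = 1.98e-09). The paper itself reports more CDKN1A mRNA after doxorubicin from this RNA-seq, and a p21 difference by RT-qPCR with and without the drug. CDKN1A was also named here after its values were seen. The CDKN1A values of these libraries are therefore no independent check of the labels. Directions below follow the labels, and KO stands for the label TRPM2 KO.

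IGFBP3 and IGFBP5, both secreted carriers of IGFs, had the widest opposite differences between the genotypes. The 250 bases before the RefSeq start site of each gene are shown because these genes lay on opposite sides of Scr, 5′ to 3′ on the - strand of GRCh38.p14, with matches to the GC box GGGCGG on either strand in capitals.
IGFBP3, chr7:45921273-45921522: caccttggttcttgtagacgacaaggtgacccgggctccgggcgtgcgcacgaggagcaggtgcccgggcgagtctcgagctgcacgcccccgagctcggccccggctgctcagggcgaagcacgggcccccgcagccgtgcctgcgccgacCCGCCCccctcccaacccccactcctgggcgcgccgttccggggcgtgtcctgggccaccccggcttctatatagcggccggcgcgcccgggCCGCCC
IGFBP5, chr2:216695550-216695799: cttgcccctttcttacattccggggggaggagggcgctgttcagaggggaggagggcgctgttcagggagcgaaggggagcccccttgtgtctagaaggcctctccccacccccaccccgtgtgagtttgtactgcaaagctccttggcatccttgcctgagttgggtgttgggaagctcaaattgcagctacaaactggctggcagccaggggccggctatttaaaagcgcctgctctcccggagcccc
The IGFBP3 window had 2 GC boxes and the IGFBP5 window 0, where 42.6% of 35116 windows of this length before RefSeq start sites had at least 1. The windows held 32 and 8 CpG pairs, with a median of 11 over all windows. Neither held the TATA box letters TATAAA, found in 10.7% of windows on either strand, or the E-box CACGTG, found in 6.34%. These matches describe the letters and not a bound site. The IGFBP3 window lies inside the GENCODE span of the gene, which has its 5′ end at 45921874, so RefSeq and GENCODE place the start of IGFBP3 differently.

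IGF2, the ligand, was higher in the libraries labelled TRPM2 KO and higher after doxorubicin in all 4 clones. The gene (ENSG00000167244) spans bases 2129112 to 2149603 of chromosome 11 (GRCh38, - strand). Untreated, IGF2 had 545 and 525 CPM in KO11, 523 and 494 CPM in KO28, 273 and 139 CPM in Scr13, and 134 and 270 CPM in Scr16. After doxorubicin it had 1249 and 842 CPM in KO11, 846 and 856 CPM in KO28, 336 and 331 CPM in Scr13, and 540 and 508 CPM in Scr16. Every KO library lay above every Scr library within a treatment, and the Scr16 libraries with doxorubicin reached the level of the untreated KO libraries. The log2 fold change of KO relative to Scr was 1.43 ± 0.17 (SE, n = 4 against 4, interval 1.08 to 1.79) untreated and 1.16 ± 0.14 (interval 0.86 to 1.45) after doxorubicin. With doxorubicin the mean level was higher 1.95-fold in KO11, 1.67-fold in KO28, 1.62-fold in Scr13 and 2.60-fold in Scr16. INS-IGF2 and a second IGF2 identifier overlap IGF2 on the same strand and were not analysed here. IGF2-AS, on the opposite strand, had between 0.576 and 7.61 CPM, and whether counting used strand is not given in the sources used here.

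IGF1R, the IGF receptor kinase (ENSG00000140443, chromosome 15, + strand, 98648539 to 98964530), was modestly higher in the libraries labelled TRPM2 KO. Untreated, it had 177 and 170 CPM in KO11, 157 and 173 CPM in KO28, 136 and 133 CPM in Scr13, and 125 and 142 CPM in Scr16. After doxorubicin it had 181 and 165 CPM in KO11, 192 and 159.6 CPM in KO28, 149 and 139.9 CPM in Scr13, and 158 and 155 CPM in Scr16. The genotypes did not overlap in either treatment, but after doxorubicin the lowest KO library and the highest Scr library were 159.6 and 158.2 CPM. The log2 fold change was 0.34 ± 0.071 (SE, interval 0.19 to 0.48) untreated and 0.21 ± 0.078 (interval 0.048 to 0.37) after doxorubicin.

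IGF2R, the receptor that clears IGF2 (ENSG00000197081, chromosome 6, + strand, 159969099 to 160113507), had a mean of 248 ± 7.03 CPM (SD, n = 4) in KO and 228 ± 9.95 CPM in Scr untreated. After doxorubicin the means were 291 ± 33.4 and 254 ± 18.4 CPM. The genotypes did not overlap untreated, where the lowest KO library had 239 CPM and the highest Scr library 236 CPM, and overlapped after doxorubicin. INSR, the insulin receptor kinase (ENSG00000171105, chromosome 19, - strand, 7112255 to 7294034), had 98.7 ± 5.90 CPM in KO and 104 ± 5.64 CPM in Scr untreated, and 117 ± 5.58 and 128 ± 10.5 CPM after doxorubicin. Its genotypes overlapped in both treatments. In each clone its mean level was higher with doxorubicin, by 1.21-fold in KO11, 1.16-fold in KO28, 1.37-fold in Scr13 and 1.11-fold in Scr16.

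**Figure D1:**
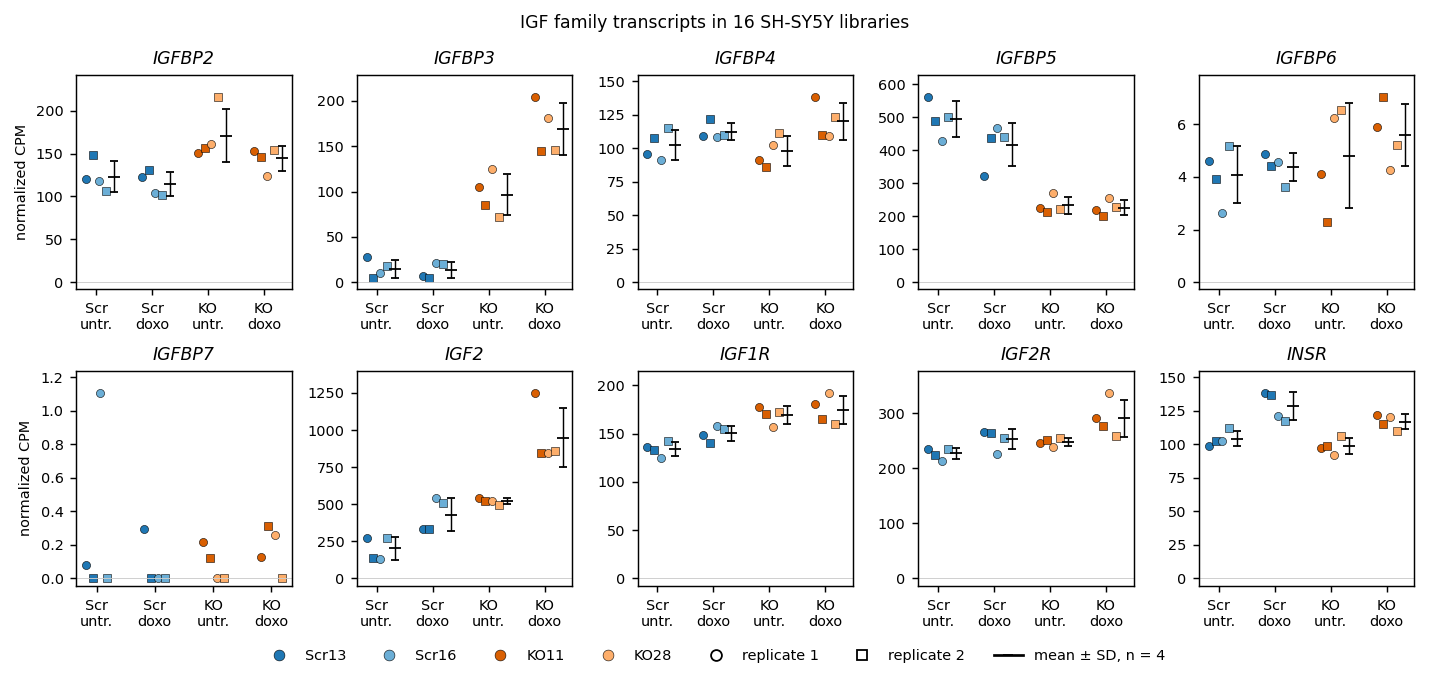
Normalized CPM (vertical axis, linear, starting near 0) of the 10 IGF family genes in 16 SH-SY5Y libraries by group (horizontal axis). Circles and squares are replicates 1 and 2, colors are clones, and bars show the mean ± SD of 4 libraries, left out for IGFBP7. IGFBP3 and IGF2 lie higher and IGFBP5 lower in every library labelled TRPM2 KO than in the Scr libraries of the same treatment.

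The plot of levels by library shows the binding proteins beside the ligand and receptors. IGFBP3 (ENSG00000146674, chromosome 7, - strand, 45912245 to 45921874), the main IGF carrier of serum and one that tumor cells also secrete, had the largest difference of the 10 genes. Untreated, IGFBP3 had 105 and 85.5 CPM in KO11, 125 and 71.7 CPM in KO28, 27.5 and 4.43 CPM in Scr13, and 10.4 and 17.4 CPM in Scr16. After doxorubicin it had 205 and 144 CPM in KO11, 181 and 146 CPM in KO28, 6.89 and 4.16 CPM in Scr13, and 20.8 and 20.4 CPM in Scr16. The lowest KO library was above the highest Scr library in both treatments, and the Scr libraries themselves ranged widely, with Scr13 replicate 1 the highest untreated. The log2 fold change was 2.83 ± 0.31 (SE, interval 2.18 to 3.49) untreated and 3.84 ± 0.30 (interval 3.21 to 4.47) after doxorubicin. Without Scr13 replicate 1 the untreated value was 3.19, and without Scr13 replicate 2 it was 2.40. The value after doxorubicin was 2.96 without clone Scr13 and 4.72 without clone Scr16.

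IGFBP5 (ENSG00000115461, chromosome 2, - strand, 216672105 to 216695525), a carrier that binds extracellular matrix, was lower in every library labelled TRPM2 KO than in every Scr library of the same treatment. Untreated, IGFBP5 had 224 and 213 CPM in KO11, 269.8 and 223 CPM in KO28, 563 and 489 CPM in Scr13, and 428 and 499.7 CPM in Scr16. After doxorubicin it had 219.6 and 201 CPM in KO11, 255 and 228 CPM in KO28, 322 and 438 CPM in Scr13, and 469 and 439.8 CPM in Scr16. The gap was smallest after doxorubicin, where Scr13 replicate 1 was the lowest Scr library. IGFBP5 fell by 1.08 ± 0.085 (SE) on the log2 scale untreated and by 0.87 ± 0.099 after doxorubicin, KO relative to Scr. AC007563.2 overlaps it on the opposite strand and had at most 0.538 CPM.

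IGFBP2 (ENSG00000115457, chromosome 2, + strand, 216632828 to 216664436), a carrier abundant in developing and neural tissue, lies beside IGFBP5 with 7668 bases between them. Untreated, IGFBP2 had 151 and 156 CPM in KO11, 161 and 216 CPM in KO28, 120.4 and 149 CPM in Scr13, and 118 and 106 CPM in Scr16. After doxorubicin it had 154 and 146 CPM in KO11, 124 and 154 CPM in KO28, 123 and 131 CPM in Scr13, and 103.6 and 101.2 CPM in Scr16. The genotypes were apart by less than 2 CPM untreated and overlapped after doxorubicin, where KO28 replicate 1 was below Scr13 replicate 2. The log2 fold change was 0.46 ± 0.11 (SE, interval 0.24 to 0.69) untreated and 0.33 ± 0.094 (interval 0.14 to 0.53) after doxorubicin. These neighbors therefore lay on opposite sides of 0.

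IGFBP4 (ENSG00000141753, chromosome 17, + strand, 40443461 to 40457731), a carrier that PAPPA cuts, had between 86.2 and 138.5 CPM in all 16 libraries, and its genotypes overlapped in both treatments. Its log2 fold change was -0.07 ± 0.094 (SE, interval -0.26 to 0.13) untreated and 0.09 ± 0.086 (interval -0.088 to 0.27) after doxorubicin. IGFBP6 (ENSG00000167779, chromosome 12, + strand, 53097436 to 53102345), a carrier that prefers IGF2, had between 2.29 and 7.05 CPM, and its intervals of -0.42 to 0.71 untreated and -0.19 to 0.76 after doxorubicin both held 0. IGFBP7 (ENSG00000163453, chromosome 4, - strand, 57030773 to 57110385), which binds IGFs weakly, had 0 reads in 8 libraries and at most 1.10 CPM, so it did not pass the filter on low values. POLR2B, which overlaps IGFBP7 on the opposite strand, had between 154 and 249 CPM.

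**Figure D2:**
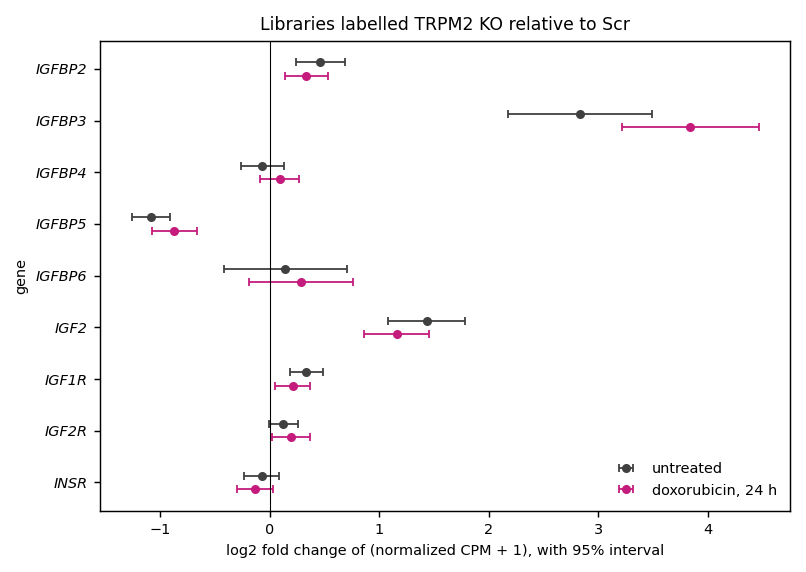
Log2 fold change of CPM + 1 (horizontal axis) of libraries labelled TRPM2 KO relative to Scr for the 9 genes tested (vertical axis), untreated and after doxorubicin, 4 libraries against 4. Points are limma estimates and lines 95% intervals. IGFBP3 stands farthest to the right with 2.83 and 3.84, and IGFBP5 is the gene on the left whose intervals do not reach 0.

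Of the 9 genes that passed the filter, 5 were called untreated, with IGFBP2, IGFBP3, IGF1R and IGF2 higher and IGFBP5 lower, where 4.84% of all 14364 genes tested were called, 2.30% higher and 2.54% lower. The groups of 6 genes did not overlap, against 9.29% of all genes tested. After doxorubicin 4 were called, with IGFBP2, IGFBP3 and IGF2 higher and IGFBP5 lower, where 8.69% of 14572 genes were called (4.52% higher and 4.17% lower), and 4 did not overlap, against 13.2%. The genes had been chosen on these groups, so nothing is read from their counts. With the reads of each clone summed, 2 clones against 2, 4 of the 9 genes and 521 genes in all were called untreated, IGF1R no longer among them, and 4 of the 9 and 1125 genes after doxorubicin. IGFBP2 was no longer called untreated without Scr16 replicate 2, and after doxorubicin without either KO11 replicate, either Scr16 replicate or KO28 replicate 2. The median log2 fold change of the 9 genes was 0.14 untreated and 0.21 after doxorubicin, and that of all genes tested was -0.0073 and 0.014. In a bulk library, fewer cells of a type and less RNA per cell cannot be told apart, which holds for every difference given here.

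Per kilobase of exon, the make-up of the binding proteins differed between the genotypes while their sum was close. The 6 IGFBP genes summed to 141 ± 13.7 CPM per kilobase (SD, n = 4) in KO and 156 ± 12.5 in Scr untreated, and to 161 ± 12.5 and 146 ± 10.9 after doxorubicin. Without division by exon length the untreated sums were farther apart, at 603 ± 53.7 CPM in KO and 740 ± 66.1 CPM in Scr. After doxorubicin these sums were 665 ± 46.8 and 662 ± 65.2 CPM. IGFBP5 made up 49.2% ± 2.38 of that sum in Scr untreated and 25.6% ± 1.89 in KO untreated. IGFBP3 made up 2.07% ± 1.27 and 15.01% ± 3.32 untreated, and 1.94% ± 1.26 and 22.9% ± 2.62 after doxorubicin, Scr and KO respectively. IGFBP5 had the highest share in every Scr library, and IGFBP4 in every KO library, as the bars of shares by library show. That order in KO rests on the division by exon length, 2200 bases for IGFBP4 and 6442 for IGFBP5. In CPM without it, IGFBP5 was the highest of the 6 in every KO library too. Its KO means were 233 CPM untreated and 226 CPM after doxorubicin, against 97.9 and 120 CPM for IGFBP4. In mean level per kilobase over the 4 groups, IGF2 had between 29.2 and 136 CPM per kilobase, IGF2R between 12.8 and 16.3, IGF1R between 9.61 and 12.5, and INSR between 9.45 and 12.3. The 3 receptors thus lay close together and IGF1R and INSR exchanged order between the groups.

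**Figure D3:**
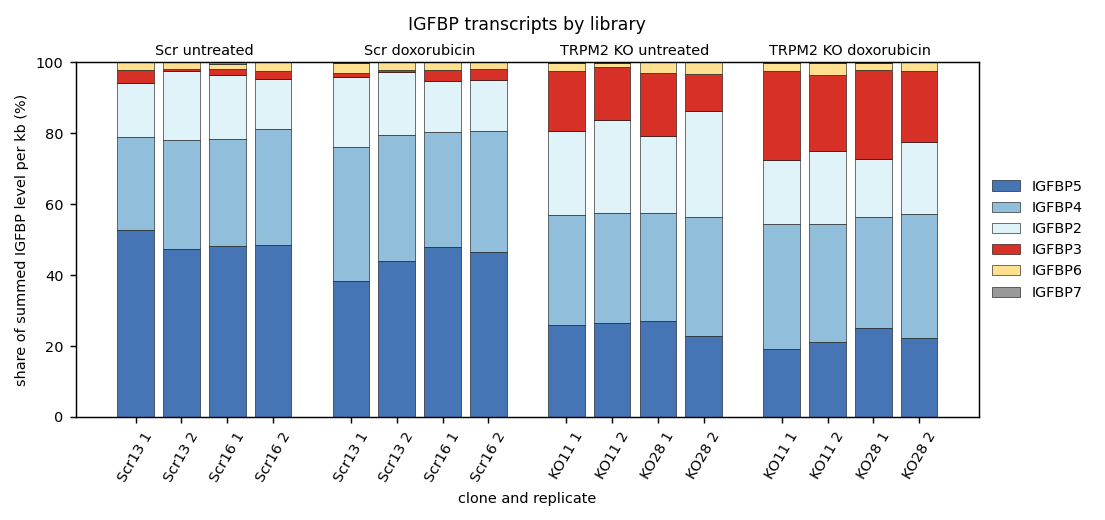
Share of the summed IGFBP level per kilobase of exon (vertical axis, percent) taken by each of 6 IGFBP genes in each library (horizontal axis, clone and replicate), ordered by group. IGFBP5 makes up a mean of 49.2% in Scr untreated and 25.6% in KO untreated, and IGFBP3 2.07% and 15.01%.

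Doxorubicin was compared with untreated cells within each genotype, with a term for the clone. The same untreated libraries stand in the genotype comparisons. The 8 p53 target genes, a check of the drug, summed to 250 ± 24.7 CPM (SD) in Scr untreated and 854 ± 90.3 CPM in Scr doxorubicin, and to 390 ± 11.6 and 1606 ± 101.2 CPM in KO. Of the IGF family, IGF2 had a log2 fold change of 1.11 ± 0.19 (SE) in the Scr clones and 0.84 ± 0.090 in the KO clones. IGFBP3 had -0.19 ± 0.38 (interval -0.99 to 0.61) in Scr and 0.82 ± 0.12 (interval 0.56 to 1.07) in KO. Its mean level moved 0.346-fold in Scr13 and 1.48-fold in Scr16, in opposite directions, and 1.83-fold in KO11 and 1.67-fold in KO28. Without Scr13 untreated replicate 1, the Scr value of IGFBP3 was 0.44, and without Scr13 untreated replicate 2 it was -0.52. The difference between the IGFBP3 responses, KO minus Scr, was 1.01 ± 0.50 with an interval of -0.020 to 2.04. It was 0.24 without clone Scr13 and 1.78 without clone Scr16, and lay between 0.61 and 1.44 (without Scr13 doxorubicin replicate 2 and without Scr13 untreated replicate 2) with 1 library left out at a time.

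INSR had a log2 fold change of 0.30 ± 0.078 (SE) in the Scr clones and 0.24 ± 0.078 in the KO clones. The lowest INSR level with doxorubicin was above the highest untreated level within each genotype. IGF2R had 0.15 ± 0.067 in Scr and 0.22 ± 0.077 in KO, IGFBP4 had 0.13 ± 0.084 and 0.29 ± 0.091, and IGF1R had 0.17 ± 0.071 and 0.04 ± 0.076. IGFBP5 had -0.25 ± 0.10 and -0.04 ± 0.075, and IGFBP2 had -0.10 ± 0.079 and -0.23 ± 0.095. Single libraries moved these values. Leaving out 1 library at a time, IGFBP5 in Scr lay between -0.34, where it was called (without Scr16 untreated replicate 1), and -0.12 (without Scr13 doxorubicin replicate 1), and in KO between -0.099 and 0.010. IGFBP2 lay between -0.17 and -0.047 in Scr (without Scr13 untreated replicates 1 and 2) and between -0.29 and -0.11 in KO, the latter without KO28 untreated replicate 2. IGF1R in KO lay between -0.023 (without KO28 doxorubicin replicate 1) and 0.084, on both sides of 0, and IGFBP4 in Scr between 0.076 and 0.21 (without Scr16 untreated replicates 1 and 2). In Scr 2 of the 9 genes were called, IGF2 and INSR, both higher with doxorubicin, where 12.3% of all genes were called and 7.10% were higher. In KO 5 were called, IGF2, IGFBP3, IGFBP4, IGF2R and INSR, all higher with doxorubicin, where 19.6% of all genes were called and 11.3% were higher. The call of INSR in Scr was lost without any 1 of the Scr13 libraries, and those of IGF2R and INSR in KO without any 1 of the KO11 libraries or without replicate 1 of KO28 in either treatment. The call of IGFBP4 in KO was lost without either untreated KO11 library or without KO11 doxorubicin replicate 1, which left 0.19, and IGF2R fell to 0.14 without KO28 doxorubicin replicate 1. The interaction of genotype and doxorubicin called 0 of the 9 genes by limma and 0.0196% of 15325 genes, 3 in all, with 1148 genes at an unadjusted p under 0.05. Without each clone in turn, the interaction called between 0 and 5 genes.

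**Figure D4:**
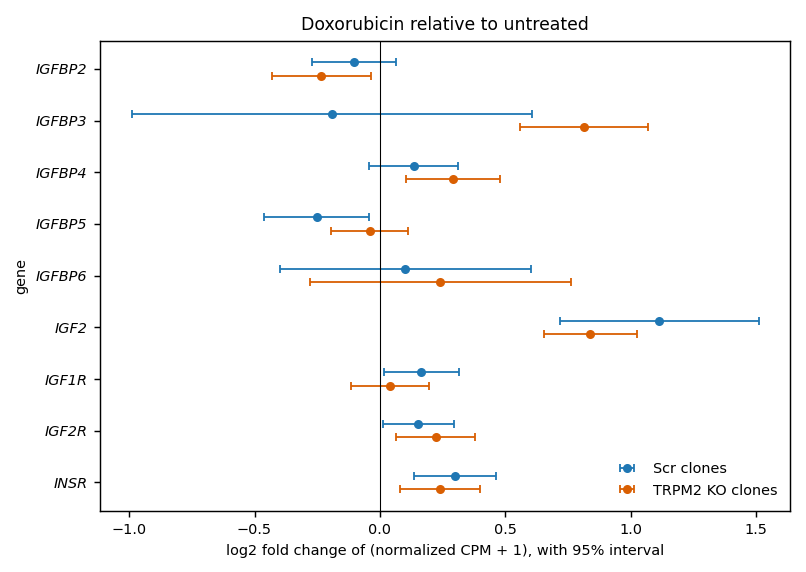
Log2 fold change of CPM + 1 (horizontal axis) with doxorubicin relative to untreated for 9 IGF family genes (vertical axis) in the Scr clones and the TRPM2 KO clones, 4 libraries against 4 with a term for the clone. Points are limma estimates and lines 95% intervals. IGF2 lies right of 0 in both genotypes, and IGFBP3 has a wide interval in Scr, from -0.99 to 0.61.

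The clones of 1 genotype are set side by side here, again as a description, since the values that chose the genes were those of the single libraries. Between KO28 and KO11, 0 of the 9 genes were called by limma where 0.138% of 14513 genes were called, 20 in all, and 1460 genes had an unadjusted p under 0.05. The log2 difference was -0.04 ± 0.12 (SE, interval -0.29 to 0.21) for IGFBP3, -0.17 ± 0.090 (interval -0.36 to 0.014) for IGF2 and 0.18 ± 0.075 (interval 0.027 to 0.33) for IGFBP5. Without KO11 doxorubicin replicate 1 the IGF2 difference was -0.038, and with 1 library left out at a time that of IGFBP3 lay between -0.21 and 0.11, on both sides of 0. Between Scr16 and Scr13, 0 of the 9 were called where 0.0348% of 14378 genes were called, 5 in all, and 1009 genes had an unadjusted p under 0.05. IGFBP3 was 0.99 ± 0.38 higher in Scr16 on the log2 scale, with an interval of 0.19 to 1.79. Without Scr13 untreated replicate 1 that difference was 1.62, and 1 of the 9 genes, IGFBP3, was called. IGFBP2 had a log2 difference of -0.28 ± 0.079 (interval -0.45 to -0.11), lower in Scr16.

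Markers of cell state moved beside these genes. Of 10 fibroblast or mesenchymal markers, 9 were in the tables, and 6 of these were called higher and TWIST1 lower in the libraries labelled TRPM2 KO in each treatment, of 9 tested untreated and 8 after doxorubicin, where 2.30% and 4.52% of all genes were called higher. COL3A1, a fibrillar collagen gene, had a log2 fold change of 2.17 ± 0.42 (SE, adjusted p = 0.00279 from limma) untreated. LUM and DCN, matrix proteoglycan genes, had between 8.24 and 12.6 CPM and between 1.14 and 4.16 CPM in the untreated KO libraries, and at most 3.15 and 0.472 CPM in the Scr ones. DCN in both treatments and LUM after doxorubicin passed the filter on low values through the KO libraries alone, so their direction was fixed by the filter. They are counted among the 6. LUM untreated had a minimum of 0.511 CPM in Scr, so the Scr libraries alone would not have met the filter there either. The 9 markers summed to 1063 ± 128 CPM (SD) in KO and 673 ± 203 CPM in Scr untreated, and to 1109 ± 153 and 637 ± 118 CPM after doxorubicin. VIM was the most abundant marker in every KO library, and TWIST1 in every Scr library but Scr13 untreated replicate 1. That library had a sum of 958 CPM against 478 CPM in replicate 2 of the same clone and treatment, and its IGFBP3 and IGF2 were also the higher of the pair. COL1A2 had 0 reads in 2 Scr libraries with doxorubicin, and no other marker of the 9 was at 0 in any library. The 8 adrenergic neuroblastoma markers, led by DBH or HAND2, summed to 5095 ± 377 CPM in KO and 4884 ± 381 CPM in Scr untreated, and to 4803 ± 218 and 5134 ± 316 CPM after doxorubicin, with TH at 0 in 6 of the 16 libraries. The part of these markers in the IGF family differences was not tested.

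The genes with levels most like those of the 3 IGF family genes that varied most over the 16 libraries are given as a description, over 14071 genes and with the groups and clones shared by all points. For IGFBP3 these were YAP1, a Hippo pathway coactivator, COL11A1, a collagen gene, and GPC3, a cell surface proteoglycan gene, with Pearson's r of 0.982, 0.970 and 0.965. For IGF2 they were FAM210B, NPC2 and CDH11, a mesenchymal cadherin gene, with r of 0.947, 0.937 and 0.931. For IGFBP5 they were GFRA2, a receptor for neurturin, PRSS12 and GPX7, with r of 0.965, 0.964 and 0.953.

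The wider pathway list held 55 genes around the IGF family, of which 50 were in the tables. Untreated, 2 of 42 tested were higher and 3 lower in the libraries labelled TRPM2 KO, and after doxorubicin 6 of 43 were higher and 2 lower, with medians of 0.04 and 0.06 on the log2 scale. Of all genes tested, 2.30% were higher and 2.54% lower untreated, and 4.52% and 4.17% after doxorubicin. Of 6 genes listed as IGFBP proteases or their regulators, 2 of 4 tested were higher and 1 lower untreated, and 2 of 5 were higher and 0 lower after doxorubicin. ADAM12, a metalloprotease gene of that list, was lower untreated, at -0.37 ± 0.10 (SE, adjusted p = 0.0391 from limma). PAPPA2 was tested after doxorubicin, with -0.66 ± 0.33 (adjusted p = 0.273). PAPPA had means of 6.12 ± 2.31 CPM (SD) in KO and 2.42 ± 1.80 CPM in Scr untreated, and of 17.0 ± 2.95 and 2.76 ± 1.66 CPM after doxorubicin. Its log2 fold change was 1.13 ± 0.30 (SE, adjusted p = 0.0280 from limma) untreated and 2.38 ± 0.29 (adjusted p = 6.84e-06) after doxorubicin, while the interaction did not pass (1.25 ± 0.44, adjusted p = 0.506). With doxorubicin the lowest Scr library had 0.694 CPM of PAPPA, so the Scr libraries alone would not have met the filter on low values. That limits what the p-value of PAPPA after doxorubicin can show. HTRA1, a secreted serine protease gene, had 1.38 ± 0.31 (adjusted p = 0.0103) and 2.02 ± 0.39 (adjusted p = 0.00134). After doxorubicin HTRA1 had a median of 0.905 CPM and a maximum of 8.08 CPM in Scr, and at least 8.25 CPM in KO. Untreated, the lowest Scr library had 0.633 CPM of HTRA1. In both treatments the Scr libraries alone would not have met the filter on low values, which limits what the p-values of HTRA1 can show.

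IRS2, the adaptor that passes the receptor signal on, was lower at -0.31 ± 0.072 (SE, adjusted p = 0.0115 from limma) untreated and -0.43 ± 0.066 (adjusted p = 0.000140) after doxorubicin. FOXO3, a transcription factor that AKT inhibits, was lower at -0.29 ± 0.072 (adjusted p = 0.0199) and -0.45 ± 0.085 (adjusted p = 0.00104). In the doxorubicin comparison and not untreated, INSRR, an insulin receptor relative, was higher at 0.96 ± 0.17 (adjusted p = 0.000560), and GNPTAB, which makes the mannose 6-phosphate tag that IGF2R binds, at 0.55 ± 0.084 (adjusted p = 0.000104). Their interactions with doxorubicin had adjusted p of 0.240 and 0.411. IGF2BP2, an RNA-binding protein of IGF2 mRNA, had between 1.97 and 3.90 CPM in KO with doxorubicin, 0 reads in 3 Scr libraries and 0.390 CPM in the fourth. It passed the filter through the KO libraries alone, so its call, counted among the higher genes above, had its direction fixed by the filter.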

How the data were processed

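Poly(A) RNA libraries of SH-SY5Y clones were made with a directional kit. The submitters' processing notes name bcl2fastq, HISAT2 2.1.0, HTSeq, edgeR and GRCh38. As deposited by the authors, the library columns hold a signal, reads scaled to library size with a factor per library (normalized CPM). The deposited p-values, q-values, log2 fold changes and rank score of the authors' own comparisons were not used. Whole reads were recovered for 100% of values (tolerance 0.01 reads). All library columns were assigned to samples, with 0 left over. Factors lay between 0.974 and 1.03, and depth had a median of 16037366.5 reads on genes. Intervals and floors cover counting error or the spread between libraries.

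Groups came from the labels. Log2(normalized CPM + 1) values were fitted by limma 3.58.1 in R 4.3.3, with empirical Bayes moderation along mean abundance. The filter was at least 1 CPM in at least 4 libraries fitted, and p-values were adjusted over all genes. Doxorubicin comparisons had a clone term, clone comparisons a treatment term, and the interaction used 16 libraries without a clone term. Gene names were found for 95.9% of identifiers, with positions from GENCODE 29 and start site windows from RefSeq (8 of the 10 genes matched).

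The genes and lists were chosen with earlier results of these data known. Named genes are the 10 genes, TRPM2, up to 12 pathway list genes past the threshold in a genotype comparison, and the 3 genes most correlated with each of 3 genes. LUM, DCN, COL3A1, VIM, COL1A2, TWIST1, TH, DBH and HAND2 are named from the marker lists, after their values were seen. The same holds for CDKN1A from the p53 target list and PAPPA2 from the pathway list. Alternatives were another pseudocount (0.5), other filters, library size alone, TMM factors over 16 libraries (chosen after seeing the data), edgeR 4.0.16, DESeq2 1.42.0, a replicate block, a random clone block, reads summed per clone, and each library or clone left out. Some genes of the lists that passed the threshold are not reported here by name. The code was tested on simulated data.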

Additional observations from a re-analysis of the deposited data

Results flagged for a closer look

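Among 40 sets of 4 libraries (10 genes in 4 groups), the library farthest from the others stood apart by Dixon's 95% limit in 5. Chance alone gives about 1 in 20 sets, but these values had chosen the genes and each set mixes 2 clones, so nothing is read from the count. IGF2 had 1249 CPM in KO11 replicate 1 with doxorubicin, against 842 to 856 CPM in the other 3 libraries of that group. IGFBP2 had 216 CPM in untreated KO28 replicate 2, against 151 to 161 CPM. IGFBP4 had 122 CPM in Scr13 replicate 2 with doxorubicin, against 109 to 110.2 CPM. IGFBP7 had 1.10 CPM (18 reads) in untreated Scr16 replicate 1 and 0.297 CPM (5 reads) in Scr13 replicate 1 with doxorubicin, where the other libraries of those groups had at most 0.0787 CPM (2 reads).

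TP53I3, a p53 target gene outside the IGF family, had an interaction of genotype and doxorubicin of 1.66 ± 0.23 on the log2 scale (SE, adjusted p = 0.000663 from limma). Without clone KO11, and without clone Scr16, the interaction called 0 genes, so this call was lost in both.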

How the results depend on the processing

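Over all comparisons and alternatives, the 9 tested IGF family genes had 1184 values on the same side of the threshold, 45 no longer past it, 4 newly past it and 0 where a called value changed sign. The causes of these moves were not tested. With no filter on low values, the genes called were 368 in KO against Scr untreated (695 as reported), 831 for doxorubicin in Scr (1774), 5 in the interaction (3), and 0 between the KO clones and 0 between the Scr clones, and the IGF family genes called were 0 for doxorubicin in Scr and 2 for doxorubicin in KO. Without clone Scr13, 330 genes were called untreated, and without Scr16, 327, with 3 of the IGF family. IGFBP2 and IGF1R no longer passed without Scr16. Without clone KO11, 510 genes were called after doxorubicin, and without KO28, 575. The interaction called 0 genes without KO11, 0 without Scr16, 1 without KO28, 5 without Scr13 and 31 with DESeq2. On the recovered whole reads, the edgeR quasi-likelihood test called 636 genes in KO against Scr untreated and 1193 after doxorubicin. It called 3 IGF family genes for doxorubicin in KO, 10 genes between the KO clones and 2 between the Scr clones, and DESeq2 43 between the KO clones.

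Leaving out each library in turn gave 508 to 678 genes untreated, 814 to 1314 after doxorubicin (lowest without KO11 replicate 1), 1100 to 1739 for doxorubicin in Scr (lowest without Scr13 untreated replicate 2, and 1102 without Scr13 doxorubicin replicate 1), 2049 to 2903 for doxorubicin in KO, 1 to 4 in the interaction, 3 to 91 between the KO clones and 1 to 32 between the Scr clones. The IGF family genes called ranged over 4 to 5, 3 to 4, 1 to 3, 2 to 5, 0 to 0, 0 to 0 and 0 to 1 in the same order. The log2 fold change of IGFBP3 between the genotypes lay between 2.40 and 3.19 untreated and between 3.45 and 4.14 after doxorubicin, where it was 2.96 without clone Scr13 and 4.72 without clone Scr16. IGFBP2 lost its call after doxorubicin when any 1 of 5 libraries was left out.

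The replicate numbers did not pair the libraries, with correlations of deviations of the same number between -0.11 and 0.14. With a replicate block 697 genes were called untreated, 1365 after doxorubicin and 7 in the interaction, against 3 without it, and with clone and replicate block 2129 for doxorubicin in Scr and 2905 in KO. In KO that fit called 6 IGF family genes in place of 5, the added one being IGFBP2, lower with doxorubicin (-0.23). With library size alone IGFBP2 was also called (-0.27) and IGF2R and INSR no longer were, which left 4.

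Each genotype rests on 2 clones. Transcripts of IGFBP7 were too few to compare at this depth.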
